A study of Mus musculus with 11 samples.

Results

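Contact with the nuclear lamina was described for 8 genes of ionotropic glutamate receptor subunits in mouse cells of the oligodendrocyte lineage. They are the AMPA receptor genes Gria1, Gria2 and Gria4 and the kainate receptor genes Grik1, Grik2, Grik3, Grik4 and Grik5. The AMPA receptor gene Gria3 is not among them, so statements on the AMPA genes cover only those named. Members were taken by symbol, and all 8 were found once each among the 21534 gene regions of the deposited table. The study used DamID-seq, in which Dam, an adenine methyltransferase of bacteria, is joined to lamin B1 (LMNB1), a filament protein that lines the inner nuclear membrane, so that DNA near the lamina gains adenine methylation. Untethered Dam marks the DNA that any free enzyme can reach.

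The cells were primary oligodendrocyte precursor cells (OPC) of C57BL/6 mice, titled WT, and were taken from the cortex at postnatal day 7. All groups had carried a lentiviral vector for 1 day, with either Dam-LMNB1 or Dam, and were then grown for 72 h. The cells called OPC here stayed in proliferation medium (PF), and those called OL (oligodendrocyte) were placed in differentiation medium (T3). In OPC there were 3 libraries with Dam-LMNB1 (numbers 8, 9 and 10) and 2 with Dam, and in OL 3 with Dam-LMNB1 (numbers 18, 19 and 20) and 3 with Dam. Each of the 6 Dam-LMNB1 libraries has 1 score per gene region, taken by the authors against the pool of Dam libraries from the same condition, so 2 Dam libraries stand behind every OPC score and 3 behind every OL score. Nothing in the labels ties the libraries to separate cultures or animals, so the p-values cover no more than library-to-library spread, which may be technical. DamID scores hold no RNA measurement, so the cell type of the labels could not be checked. Of 17 marker genes of OPC, oligodendrocytes, neurons, astrocytes and microglia, 4 lay above 0 and 13 below 0 in OPC, and 3 and 14 in OL. Among all regions 25.5% were above 0 and 71.4% below in OPC, and 25.9% and 70.9% in OL.

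A score above 0 is read as more Dam-LMNB1 than Dam methylation, which is called contact with the lamina here, and a score below 0 as less. The log base of the score is not known here, so differences are in score units and never folds. Each score belongs to a whole region: 70.6% of the matched regions began, to within 100 bp, 10 kb upstream of the gene, and 85.9% stopped 2 kb downstream of it by the same measure. The exons, introns and flanks that a region covers therefore share 1 value. Regions of the members began 6675 bp (Grik5) to 10000 bp (Gria4) upstream of the gene, by its whole annotated span. Measured to the start site used for the promoter windows below, the distance for Grik5 was 10000 bp. The downstream flank was −3782 bp for Grik2, −1485 bp for Gria2 and −229 bp for Grik4, where a minus sign means that the region stopped before the end of the gene. Over regions, which are not independent, Pearson's r between libraries was 0.991 to 0.995 within a condition (6 pairs) and 0.976 to 0.981 between conditions (9 pairs). Library 18 of OL had the narrowest spread of scores over regions, with an SD of 1.46 against 1.53 to 1.59 in the other 5 libraries. Read depth is unknown.

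AMPA and kainate receptors are glutamate-gated cation channels, each built from 4 subunits around a central pore. The AMPA subunits carry most fast excitatory transmission in the brain, and GluA2, the product of Gria2, makes the channel nearly impermeable to calcium once its transcript has been edited. Of the kainate subunits, GluK1, GluK2 and GluK3 (Grik1, Grik2, Grik3) can form channels by themselves, while GluK4 and GluK5 (Grik4, Grik5) need one of those 3 as a partner. OPC receive glutamatergic synapses from axons and express AMPA and kainate receptors. Genes at the lamina are on the whole little transcribed, although contact and transcription are separate measures.

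Dam methylates the adenine of GATC, so a DamID score can be read only where this 4-base word occurs. The stretch before an annotated start site is shown for Gria4, Gria2, Grik2 and Grik4. These are the AMPA and the kainate gene with the highest and the lowest mean score over the 6 libraries. They set a lamina gene and an interior or intermediate gene of each class side by side. Each stretch is the 250 bases upstream of that site in the gene's direction, from RefSeq on GRCm38.p6, with every GATC in capitals. The site of Grik2, Gria2 and Grik4 lay 10000, 9956 and 10000 bp from the edge of the region. The gene span used for the flanks above began 8593, 8564 and 9371 bp from that edge. The windows of these genes therefore lie within that span. The word is its own reverse complement, so 1 search covers both strands.
Grik2, chr10:49788755-49789004, minus strand: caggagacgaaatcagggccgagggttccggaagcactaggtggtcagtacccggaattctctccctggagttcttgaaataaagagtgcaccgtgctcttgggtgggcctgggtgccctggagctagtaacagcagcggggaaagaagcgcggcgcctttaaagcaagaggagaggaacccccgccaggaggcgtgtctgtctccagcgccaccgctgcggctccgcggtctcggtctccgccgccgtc
Gria4, chr9:4796235-4796484, minus strand: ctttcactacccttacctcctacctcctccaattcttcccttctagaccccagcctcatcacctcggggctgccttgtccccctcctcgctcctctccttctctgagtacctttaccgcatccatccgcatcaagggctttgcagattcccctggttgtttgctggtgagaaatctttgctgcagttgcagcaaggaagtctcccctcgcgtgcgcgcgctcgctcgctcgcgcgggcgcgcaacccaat
Gria2, chr3:80802836-80803085, minus strand: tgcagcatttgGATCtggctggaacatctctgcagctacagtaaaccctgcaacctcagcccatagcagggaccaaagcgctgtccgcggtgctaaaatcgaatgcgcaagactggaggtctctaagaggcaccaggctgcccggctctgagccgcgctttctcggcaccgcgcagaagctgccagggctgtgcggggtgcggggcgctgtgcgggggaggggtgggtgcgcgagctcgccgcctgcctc
Grik4, chr9:42944372-42944621, minus strand: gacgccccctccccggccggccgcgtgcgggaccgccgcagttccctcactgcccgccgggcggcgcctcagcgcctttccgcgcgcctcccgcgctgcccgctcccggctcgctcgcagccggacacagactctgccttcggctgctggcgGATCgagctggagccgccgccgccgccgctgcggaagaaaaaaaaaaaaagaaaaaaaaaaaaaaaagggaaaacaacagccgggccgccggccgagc
The table of promoter sequences used here held 6 of the 8 genes, and 2 of them, Gria2 and Grik4, held 1 GATC in this window. Of all 32851 windows of the same length 41.9% held at least 1. The CpG dinucleotides (CG) numbered 20 in Grik2, 16 in Gria4, 19 in Gria2 and 36 in Grik4, against a median of 6 over all windows. Grik3 had 42 and Grik5 8. In the 4 windows shown, genes above and below 0 both exceeded that median. Each window is a small piece of a region 74.5 to 701.3 kb wide, and the score was not measured on it alone.

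The first question was where each gene lay in proliferating OPC. Grik2, Grik1 and Gria4 lay above 0, Gria1 lay at 0, Gria2 lay moderately below 0, and Grik5, Grik3 and Grik4 lay far below 0. In the limma test of the OPC mean against 0 (Benjamini-Hochberg adjusted p under 0.05 over all 21534 regions), 3 of 8 members were above 0, where 25.5% of all regions were, and 4 of 8 were below 0, where 71.4% were. No test of the group against the other regions was made. The median member score was −0.34, against −1.54 over all regions. The span was wide: the highest and lowest members stood at the 91.2 and 11.9 percentiles of all regions.

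Among the AMPA genes, Gria4 (chr9:4415892-4806234, minus strand, mm10 as for all regions below) scored 1.091, 1.104 and 1.088 in OPC libraries 8, 9 and 10. Its mean was 1.09 ± 0.01 (SD, n = 3), at the 83.6 percentile. GluA4, its product, gives AMPA channels fast kinetics. Gria1 (chr11:57001617-57332244, plus strand) encodes GluA1, the subunit best known from activity-dependent insertion at synapses, and scored 0.01, 0.02 and 0.04. Its mean of 0.02 ± 0.01 did not pass the test against 0 (limma adjusted p = 0.650). All 3 libraries lay just above 0. Gria2 (chr3:80682935-80812791, minus strand) scored −0.82, −0.63 and −0.68, all below 0, with a mean of −0.71 ± 0.09 and an adjusted p of 2.52e-07 (limma).

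The kainate genes fell into a high and a low group that followed neither the split into GluK1 to GluK3 and GluK4 to GluK5 nor the length of the gene. Grik2 (chr10:49097462-49798754, minus strand), the gene of GluK2, scored 1.86, 1.83 and 1.82, with a mean of 1.83 ± 0.02 (SD, n = 3). Grik1 (chr16:87893896-88300258, minus strand) scored 1.39, 1.43 and 1.42, with a mean of 1.41 ± 0.02. Both genes were above 0 in every OPC library, with limma adjusted p = 1.35e-10 for Grik2 and 2.51e-10 for Grik1. Grik3 (chr4:125480830-125716173, plus strand), which shares with them the ability to form channels by itself, scored −2.15, −2.16 and −2.21, with a mean of −2.17 ± 0.03. The partner subunit genes were low too. Grik4 (chr9:42518411-42954371, minus strand) scored −2.43, −2.47 and −2.43, the lowest of the 8 genes with a mean of −2.44 ± 0.03. Grik5 (chr7:25007850-25082369, minus strand) scored −2.07, −2.05 and −1.94, with a mean of −2.02 ± 0.07. Between Grik2 and Grik4 the gap was over 4 score units, and the libraries of the high and low groups were far apart.

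**Figure D1:**
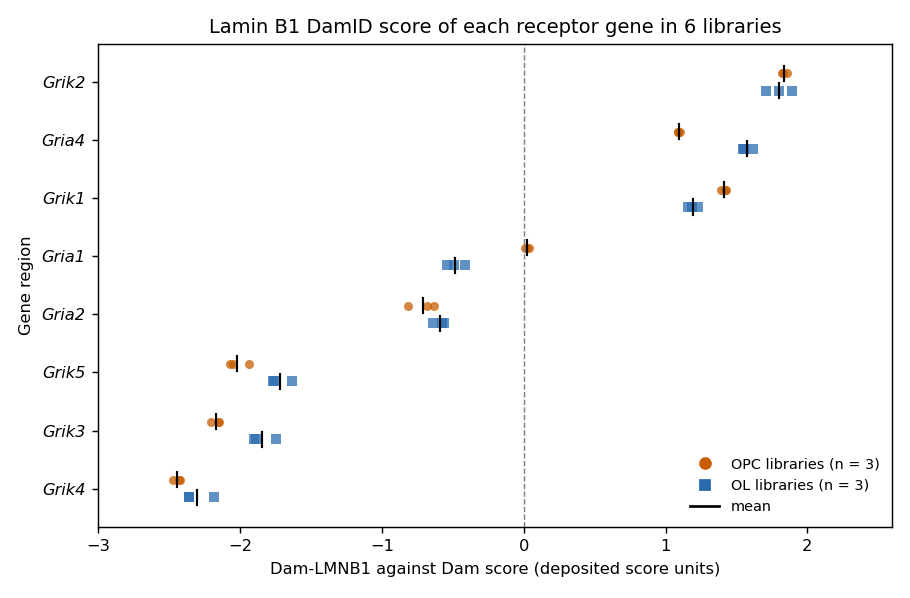
Lamin B1 DamID score (x axis, deposited score units) of the 8 receptor gene regions (y axis, ordered by their mean over 6 libraries) in each OPC library (circles) and OL library (squares), with black ticks for the mean of 3 libraries. Grik2, Gria4 and Grik1 lie above 0 in all 6 libraries, Gria1 lies at 0 in OPC and below 0 in OL, and the other 4 genes lie below 0 throughout.

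The order in OPC from high to low was Grik2, Grik1, Gria4, Gria1, Gria2, Grik5, Grik3 and Grik4. No 2 neighbours in this order overlapped in their 3 OPC scores. The smallest gap between neighbouring means was 0.15, between Grik5 and Grik3, and the largest was 1.31, between Gria2 and Grik5. The plot of all regions has a tall peak of low scores and a second, smaller and broader peak above 0. In OPC this second peak rose from 383 regions at 0.6 to 0.8 to 511 at 1.8 to 2.0. Grik3, Grik4 and Grik5 stood in the peak of low scores. Gria1 and Gria2 stood between the peaks, at the 73.3 and 64.7 percentiles.

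**Figure D2:**
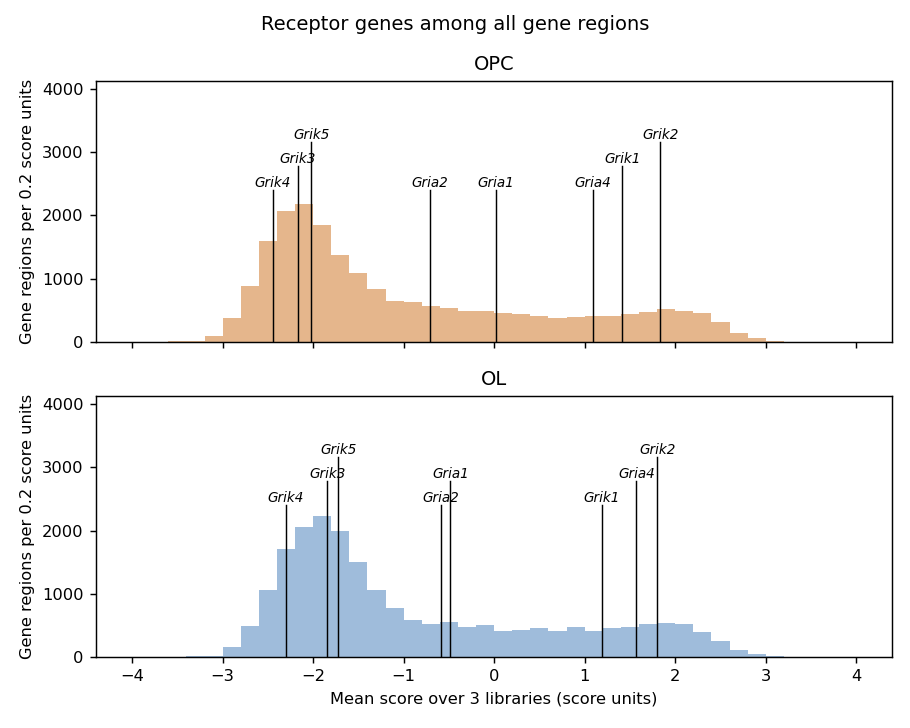
Histograms of the mean score over 3 libraries of all 21534 gene regions (x axis, score units, bins of 0.2; y axis, number of regions per bin) in OPC (top) and OL (bottom), with a black line at each receptor gene. Grik5, Grik3 and Grik4 stand in the tall peak of low scores, Gria2 and Gria1 in the middle, and Grik1, Gria4 and Grik2 in the upper part in both conditions.

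In OL the same 3 genes lay above 0 (3 of 8, against 25.9% of all regions) and the other 5 below 0 (5 of 8, against 70.9%), by limma's test of the OL mean against 0. Grik2 scored 1.7099, 1.8889 and 1.8025 in OL libraries 18, 19 and 20 (mean 1.8004 ± 0.0895, SD, n = 3). Gria4 scored 1.54, 1.62 and 1.55 (mean 1.57 ± 0.04) and so came second. Grik1 scored 1.2256, 1.1585 and 1.1895 (mean 1.191 ± 0.034). These 3 genes did not overlap with each other or with any other member.

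Gria1 scored −0.41, −0.54 and −0.49 in OL (mean −0.48 ± 0.06), below 0 with a limma adjusted p of 2.67e-06. Gria2 scored −0.56, −0.57 and −0.64 (mean −0.59 ± 0.04), below Gria1 in every library by a narrow margin. Of the low genes, Grik5 scored −1.64, −1.77 and −1.76 (mean −1.72 ± 0.07) and Grik3 −1.75, −1.90 and −1.89 (mean −1.84 ± 0.08), and their libraries overlapped. Grik4 scored −2.19, −2.36 and −2.36 (mean −2.30 ± 0.10) and was again the lowest. For these 3 genes library 18 gave the highest of the OL scores, as it did over all regions (mean score −0.79 against −0.88 and −0.87 in libraries 19 and 20).

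The main comparison of the study set OL against OPC. Gria1 fell and Gria4 rose by about the same amount, Grik1 fell less, Grik3 and Grik5 rose, and Gria2, Grik2 and Grik4 did not pass the test. By limma with adjustment over all regions, 3 of 8 members were higher in OL, where 23% of all regions were, and 2 of 8 were lower, where 10.9% were. Either way 5 of 8 changed, where 33.9% of all regions did. The median difference was 0.13 over the members and 0.10 over all regions. Since each score is relative to Dam, changes of Dam-LMNB1 and of Dam methylation cannot be told apart.

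Gria1 fell from 0.01, 0.02 and 0.04 in the 3 OPC libraries to −0.41, −0.54 and −0.49 in the 3 OL libraries. Every OL score lay below every OPC score, and every OPC score lay above 0. The difference was −0.51 (SE 0.07, limma adjusted p = 1.15e-03), lower than that of all but 3.03% of the regions. It is a move from the zero line to slightly below it, since the OPC mean could not be told from 0. Over the 12 alternatives of the test the difference was −0.58 to −0.47 and the limma adjusted p 3.75e-04 to 0.00650.

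Gria4 rose from a mean of 1.09 to 1.57, and its lowest OL score, 1.54, lay above every OPC score. The difference was 0.48 (SE 0.06, limma adjusted p = 1.16e-03), at the 93.7 percentile of all regions. Gria4 was thus a gene at the lamina in OPC whose score rose further. The alternatives gave 0.40 to 0.49, with limma adjusted p from 8.06e-04 to 0.00660.

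Grik1 fell within its range above 0, from a mean of 1.41 to 1.191, again with no overlap of the libraries. The difference was −0.22 (SE 0.06, limma adjusted p = 0.0253), at the 14.1 percentile of all regions. This call was lost without OPC library 8, 9 or 10 (limma adjusted p = 0.0571, 0.0871 and 0.0745) and without OL library 19 or 20 (0.0672 and 0.0728), with differences of −0.23 to −0.21. Each of these fits also has a library less to estimate the spread from.

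Grik3 and Grik5 rose while staying far below 0. The difference was 0.33 (SE 0.08, limma adjusted p = 0.0158) for Grik3 and 0.30 (SE 0.08, adjusted p = 0.0232) for Grik5, and the OPC and OL libraries overlapped for neither. These differences stood at the 82.0 and 78.8 percentiles of all regions. Both calls depended in part on how the libraries were scaled. With quantile normalization the differences were 0.17 and 0.16 (adjusted p = 0.0712 and 0.114), and with mean and SD made equal between libraries they were 0.20 and 0.18 (0.0445 and 0.0756, limma). Under quantile normalization 1 member was higher and 2 were lower in OL, and the share of all regions under this setting is not given here. The call of Grik3 was also lost without OPC library 10 (difference 0.31, limma adjusted p = 0.0518), and that of Grik5 without OPC library 8 or 9 (0.27 and 0.28, adjusted p = 0.0710 and 0.0749).

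For the other 3 genes the intervals give what the data allow. The 95% interval of the difference was −0.20 to 0.13 for Grik2, −0.05 to 0.29 for Gria2 and −0.05 to 0.33 for Grik4 (limma adjusted p = 0.735, 0.241 and 0.231). The libraries overlapped for Grik2 and Gria2. For Grik4 every OL score lay above every OPC score, and the difference of 0.14 was nonetheless not past the threshold. In all, 4 of 8 members had every OL score above every OPC score, as 33.5% of all regions did, and 2 of 8 had every OL score below, as 15.4% did (6 of 8 either way, against 48.9%). In the authors' deposited table none of the 8 had an adjusted p under 0.05 (3.14% of all regions had), and 5 of 8 had an unadjusted p under 0.05, as 32.7% of all regions did. The lowest adjusted p there was 0.0519 for Grik1, followed by 0.0531 for Gria4 and 0.0647 for Gria1. The authors' p-value rests on each region by itself, whereas limma shares the estimate of the spread between regions.

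**Figure D3:**
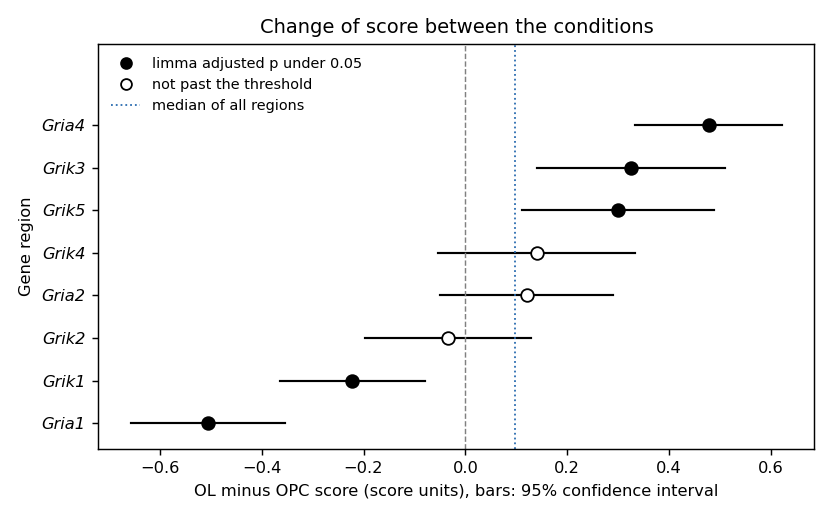
OL minus OPC difference of the score (x axis, score units) for each receptor gene (y axis), with bars for the 95% confidence interval from limma, filled points for an adjusted p under 0.05 and open points otherwise, and a dotted line at the median of all regions (0.10). Gria4 at 0.48 and Gria1 at −0.51 stand at the 2 ends, and the intervals of Grik4, Gria2 and Grik2 include 0.

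The genes around each member were set beside it, because scores of neighbouring regions are not independent. The window held every region with its midpoint within 1 Mb of the member's region, and its sides are named by coordinate. Grik3 and Grik4 lay inside long low stretches. All 38 neighbours of Grik3 and all 13 of Grik4 were below 0 in every OPC and OL library, with medians in OPC of −2.30 and −2.23. Among all regions with a midpoint between 1 and 2 Mb from the centre, all 21 around Grik3 and all 39 around Grik4 were below 0. Here and below, this outer window shares some regions with the 1 Mb window, which is measured from the edges of the member's region. A microRNA region, Mir692-2, lay within that of Grik3 and is no separate measurement. Of the 38 neighbours of Grik3 11 were higher in OL and 1 lower by limma. Among all regions 23% were higher and 10.9% lower, and these shares apply to all neighbour counts that follow. The largest rises around Grik3 were those of Mir697 (difference 0.88) and the splicing factor gene Sf3a3 (0.55). The region of Mir697 lies within that of Sf3a3, so they are not separate measurements. Of the 13 neighbours of Grik4 2 were higher and 0 lower, Oaf (0.33) and the adhesion protein gene Pvrl1 (0.33), and the median difference was −0.03.

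Grik5 sat in a low island. In OPC, 66 of its 69 neighbours within 1 Mb were below 0, with a median of −1.91, close to the −2.02 of Grik5 itself. From 1 to 2 Mb on either side of the centre, all 35 regions were above 0 in every OPC library, with a median of 1.26. Most of them are genes of vomeronasal receptors and of cytochrome P450 enzymes. This outer window was added after the values were seen. The region of Grik5 overlaps that of the zinc finger gene Zfp574, so part of its score is shared with it. Of the 69 neighbours 29 passed the test as higher in OL and 0 as lower (23% and 10.9% of all regions did). Their differences ran from −0.24 to 0.65, were above 0 in 65 of 69 and had a median of 0.30, the same as that of Grik5. The largest rises were those of Dmrtc2 (0.65) and Lypd4 (0.62), whose regions overlap.

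Grik1 stood on a slope between a low and a high stretch. The 7 neighbours on the side of lower coordinates had a median OPC score of −0.86, among them the ubiquitin protease gene Usp16 and the chaperonin gene Cct8. The 20 neighbours on the other side had a median of 2.29, and most of them are keratin-associated protein genes, which are used in hair. Grik1 at 1.41 lay between these levels. Of its 27 neighbours 4 were higher in OL and 1 lower by limma (23% and 10.9% of all regions were). A difference above the −0.22 of Grik1 was seen in 26. The called ones with the largest differences were Krtap19-3 (0.57, with overlapping libraries) and Krtap27-1 (−0.56). Members of this keratin-associated family are similar in sequence, and no source used here states how reads were placed between copies.

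Within the 1 Mb window Gria1 had low regions on 1 side and few on the other. Its 15 neighbours on the side of higher coordinates had a median OPC score of −2.08, with the nearest of them 148.7 kb away. The single neighbour on the other side, the neuromedin receptor gene Nmur2, lay 950.6 kb away and scored 0.92. Beyond it on the same side, within 2 Mb of the centre of Gria1, the glycine receptor gene Glra1 scored 0.0068. The remaining regions on that side lay below 0, from −2.51 for Atox1 to −0.29 for Fat2. Between 1 and 2 Mb from the centre, on both sides together, 24 of 52 regions were above 0 in every OPC library and 27 below. Most of these 24 lay on the side of higher coordinates and are olfactory receptor genes, such as Olfr224 (1.55). None of the 16 neighbours was lower in OL by limma and 1 was higher, Sap30l, a gene of a histone deacetylase complex (difference 0.31, adjusted p = 0.0394). All 16 had a difference above the −0.51 of Gria1, and the nearest to it was that of Nmur2 (−0.25, adjusted p = 0.0504).

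Gria2 was lower than its neighbours on 1 side. Glrb, the glycine receptor beta subunit gene, whose region begins 28.8 kb from that of Gria2, scored 0.68 in OPC, and the growth factor gene Pdgfc beyond it scored 1.21, against −0.71 for Gria2. Both rose in OL, by 0.24 each (limma adjusted p = 0.0343 for Glrb and 0.0202 for Pdgfc). The 3 neighbours on the side of lower coordinates had a median OPC score of −0.79, with a gap of 734.7 kb between them and Gria2. The regions of Gria2 and Glrb thus had opposite signs, and since each score covers a whole region, where the sign changes is not known.

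Gria4 lay in a high stretch with few genes. Of its 8 neighbours 7 were above 0 in OPC, with a median of 1.53, above the 1.09 of Gria4. In OL its score of 1.57 came nearer to their median of 1.77. The region nearest to Gria4, that of Msantd4 at 27.0 kb, was below 0 in every library, with a mean of −0.26 in OPC. The 5 neighbours on the side of lower coordinates had a median OPC score of 0.89, and the 3 on the other side 1.92. Casp1 and Casp4, genes of inflammatory caspases, rose by 0.42 and 0.26 (limma adjusted p = 3.96e-03 and 0.0316), and their regions overlap. None of the 8 neighbours rose by more than Gria4. Grik2 stood almost alone. Its window held 1 region, that of the helicase gene Ascc3, 783.9 kb away, which scored 1.76 in OPC and 2.05 in OL (difference 0.29, adjusted p = 0.0121), while the region on the other side was 2850.7 kb away.

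**Figure D4:**
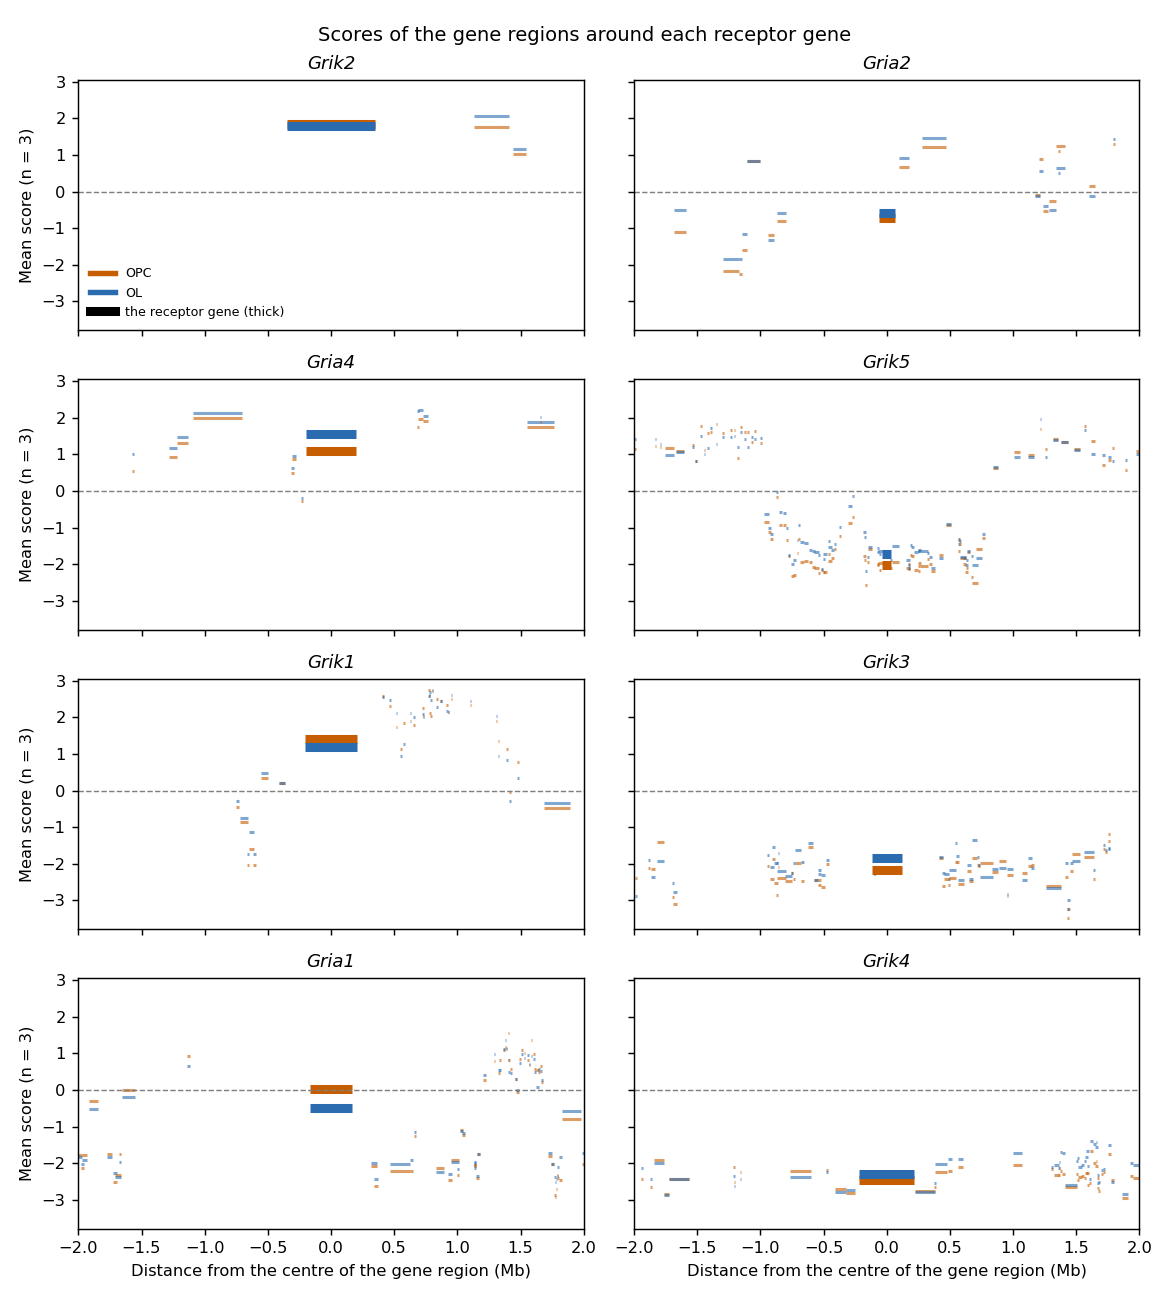
Mean score over 3 libraries (y axis) of the gene regions within 2 Mb of the centre of each receptor gene (x axis, distance in Mb, lower coordinates to the left), with the receptor gene drawn thick and each bar as wide as its region; OPC in orange and OL in blue. Grik3 and Grik4 lie in stretches below 0, Grik5 lies in a low island between stretches above 0, and Grik1 lies between a low and a high stretch. Gria1 has few regions near it to its left, and low regions to its right with a cluster above 0 beyond 1 Mb. Grik2 has no other region within 1 Mb of its centre.

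Region width did not order the members. Among all regions, wide ones were more often above 0: the share above 0 in all 3 OPC libraries was 25.0% of 15939 regions under 50 kb, 24.5% of 4648 from 50 to 200 kb, 46.9% of 765 from 200 to 500 kb and 65.9% of 182 from 500 kb. Grik2, the widest member at 701.3 kb, was the highest. Grik4 was next in width at 436.0 kb and was the lowest, while Grik1 at 406.4 kb and Gria4 at 390.3 kb were high. Grik5 was the narrowest at 74.5 kb, and Gria2 (129.9 kb), Grik3 (235.3 kb) and Gria1 (330.6 kb) came between. Gria4 and Grik4, which lie on the same chromosome, stood at 1.09 and −2.44 in OPC. On that chromosome 26.7% of 1192 regions were above 0 in all 3 OPC libraries, and on chromosome 11, which holds Gria1, 11.9% of 1681 were.

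Profiles close to those of the highest and lowest members were sought by the root mean square difference of the 6 scores, among protein-coding regions on other chromosomes. For Gria4 the nearest were Clvs1 (0.07) and the stereocilia cadherin gene Pcdh15 (0.07), and for Gria2 the nearest was the tooth and thymus factor gene Pax9 (0.07). For Grik2 they were the vomeronasal receptor gene Vmn2r8 (0.03) and the transporter gene Abca13 (0.04), and for Grik4 the purinergic receptor gene P2rx7 (0.01) and Stard10 (0.02). Within a difference of 0.2 lay 159 regions for Gria4, 451 for Gria2, 606 for Grik2 and 2154 for Grik4. The profile of Gria4 was thus shared with the fewest regions of these 4.

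Other genes of the receptor pathway were taken from 7 lists by role, with 47 of 48 genes in the table. In OPC 8 were above 0 and 37 below 0 (25.5% and 71.4% of all regions were), and in OL 10 and 37 (25.9% and 70.9%). Their median score was −1.56 in OPC and −1.53 in OL. By limma 10 were higher in OL (23% of all regions were) and 8 lower (10.9% were), with a median difference of 0.07. This split turned with the scaling, to 8 higher and 13 lower with quantile normalization, 7 and 11 with mean and SD made equal, and 7 and 12 with the medians made equal. Without OPC library 9 or 10 there were 6 higher, and without OPC library 8 or OL library 19 there were 5 lower. At an adjusted p under 0.05 in the authors' deposited table, 1 was higher and 2 were lower. Of all regions 3.14% passed there in either direction. Shares of all regions under the other settings are not given here, so the turn cannot be read as particular to these genes.

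The AMPA auxiliary subunits, small membrane proteins that ride with the channel and set its gating and delivery, had 1 of 14 above 0 and 12 below in OPC (25.5% and 71.4% of all regions), and 4 were higher and 4 lower in OL (23% and 10.9% of all regions). The same shares apply to the lists that follow. Shisa9, which encodes a protein that alters desensitization, fell from −0.37 ± 0.03 to −1.19 ± 0.11 (SD, n = 3, difference −0.82, limma adjusted p = 3.02e-04). Gsg1l, the gene of a claudin-like auxiliary subunit, fell by 0.55 from −0.99 ± 0.06 (adjusted p = 2.02e-03). The cornichon gene Cnih2 rose by 0.49 to −1.52 ± 0.02 (limma adjusted p = 0.0120). The member above 0 was Syndig1 at 1.93 ± 0.02 in OPC, named after its value was seen. Of the 5 assembly factors, which act on the receptor in the endoplasmic reticulum, Sacm1l, the gene of a phosphoinositide phosphatase, fell from −0.06 ± 0.08 to −0.71 ± 0.08 (adjusted p = 6.87e-04), 1 was higher and 3 were not called.

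The kainate auxiliary subunit genes Neto1 and Neto2 moved in opposite directions. Both encode membrane proteins with CUB domains that slow the closing of kainate channels. Neto1 scored 0.64, 0.62 and 0.59 in OPC and 1.21, 1.17 and 1.11 in OL, and rose by 0.55 (SE 0.07, limma adjusted p = 6.87e-04). Neto2 scored −1.48, −1.43 and −1.36 in OPC and −2.13, −2.46 and −2.32 in OL, and fell by 0.88 (SE 0.10, adjusted p = 6.03e-04). The libraries overlapped for neither, and each moved away from 0 on its own side. The C1q-like genes of this list, C1ql2 and C1ql3, were not called between the conditions.

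Among the 9 measured genes of secreted and adhesion organisers, Lrrtm3 crossed 0. This gene of a postsynaptic adhesion protein scored −0.56, −0.59 and −0.53 in OPC and 0.43, 0.28 and 0.25 in OL, with a difference of 0.88 (SE 0.07, limma adjusted p = 1.68e-04). Its 3 OPC scores were all below 0 and its 3 OL scores all above. In this list 1 gene was higher and 2 were lower. Of the RNA editing enzymes, Adarb1, whose product edits the Gria2 transcript, rose from −1.72 ± 0.05 to −1.28 ± 0.11 (adjusted p = 5.74e-03), and the other two were not called. The scaffold and trafficking genes had 1 of 10 higher and 0 lower. The delta receptors, relatives that glutamate does not open, had 1 of 2 above 0 in each condition, and 1 was higher.

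**Figure D5:**
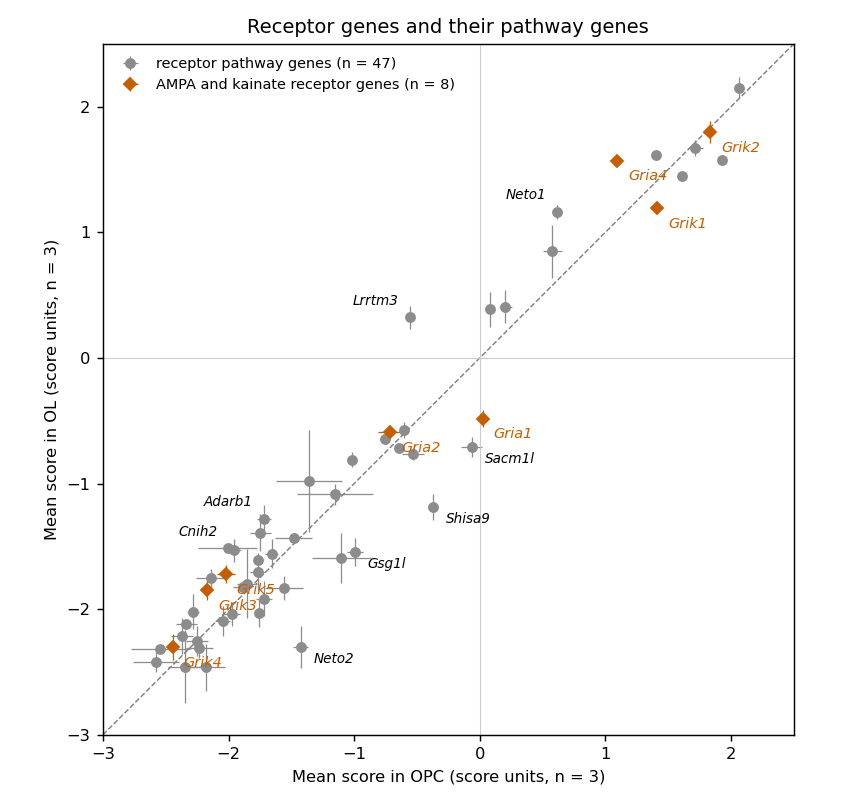
Mean score in OPC (x axis) against mean score in OL (y axis), both in score units, for the 8 receptor genes (diamonds) and 47 pathway genes (circles), with bars for 1 SD over 3 libraries and a dashed line of equal scores. Gria1, Neto2, Shisa9 and Sacm1l lie below the line and Gria4, Neto1 and Lrrtm3 above it.

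The other glutamate receptor classes in the table also held genes on both sides of 0. In OPC 2 of 7 NMDA receptor subunit genes were above 0 and 5 below, and 4 of 8 metabotropic receptor genes were above and 3 below, beside 25.5% above and 71.4% below among all regions. Differences between these classes and the 8 members were not tested.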

How the data were processed

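The study measured lamin B1 contact by DamID-seq in 11 libraries, 6 with Dam-LMNB1 and 5 with Dam alone. The submitters' processing notes name the mm10 build, BWA 0.7.17 and cutadapt 1.9.1. The authors deposited 1 table of 21534 gene regions with a score for each Dam-LMNB1 library, which per the file headers compares it with the pooled Dam libraries of its condition. The steps from reads to scores are not stated in the sources used here. The authors also deposited a p-value and an adjusted p-value per region, and this p-value equals Welch's test of each region within 0.5% in 100% of the regions.

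No filter was applied to the deposited scores. The fit took all regions and 6 libraries in limma 3.58.1 under R 4.3.3, with a mean for each condition, a trend of the variance with the score and 9.42 degrees of freedom. Two-sided tests set each condition against 0 and OL against OPC, and p-values were adjusted by Benjamini and Hochberg over 21534 regions, with a threshold of 0.05. The fit was tested on simulated data. The scores of a condition share 1 Dam denominator, so no p-value covers variation between Dam libraries. RefSeq tables of GRCm38.p6 gave gene types and matched 19339 regions as protein-coding, 8 members among them.

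The members and gene lists were chosen with earlier results of these data known. Named were all members, the 4 largest rises and the 4 largest falls among called pathway genes, for each member at most 2 called neighbours, and the 2 nearest profiles of 4 members, of which 1 is not reported here. Other genes that illustrate a neighbourhood or list were named after their values were seen. Alternatives were 3 scalings, 2 variance models, separate fits per condition, protein-coding regions only, leaving out each library and the authors' adjusted p-value.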

Additional observations from a re-analysis of the deposited data

How the results depend on the processing

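The numbers of members above and below 0 in OPC and in OL were equal in all alternatives run, and those of pathway genes differed by at most 1. Counts between OL and OPC moved. Members higher in OL numbered 3, against 1 with quantile normalization and 0 by the authors' deposited adjusted p-value, and members lower in OL numbered 2, against 0 by the authors' value. Pathway genes numbered 8 lower against 13 with quantile normalization, and by the authors' value 1 was higher and 2 were lower. Leaving out 1 library gave 2 to 3 members higher and 1 to 2 lower, and 6 to 9 pathway genes higher and 5 to 8 lower. Among all regions 23% were higher and 10.9% lower in the main fit, and 3.14% passed by the authors' value. Shares under the other settings are not given here, so these moves cannot be read as particular to the members or pathway genes. Signs changed only for uncalled differences near 0. Grik4 had −0.0061 with quantile normalization and −6.50e-04 with the same mean and SD in each library. Grik2 had 0.0060 and 0.0018 under the same 2 settings, and leaving out 1 library gave −0.0787 to 0.0109, with the latter without OL library 18. The calls of Gria1 and Gria4 held in all 12 alternatives of the limma fit. The cause of these moves was not tested. No paired analysis was possible because the libraries of the conditions share no replicate number. Read depth is unknown, so counting error could not be separated from the spread between libraries.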
